A study of Mus musculus with 1307 samples.

Results

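The genes described here are 4 Notch receptors (Notch1, Notch2, Notch3 and Notch4), the ligands Jag1 and Dll4, and 4 genes read as outputs or modulators of the pathway (Hey1, Heyl, Nrarp and Nrip2), in single cells of the adult mouse heart. They were chosen by name, and all 10 were found among the 46517 genes of the deposited table. Every member had counts: the share of all cells with at least 1 count was lowest for Notch4 (11.7%) and highest for Notch1 (74.2%).

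Notch receptors sit in the cell membrane and are activated by ligands on a neighbouring cell. Activation leads to cleavage of the receptor, and its intracellular part enters the nucleus, where it acts with the DNA-binding protein RBPJ on target genes, among them members of the Hes and Hey families. In blood vessels, Dll4 and Notch1 are known for their part in endothelial sprouting and arterial identity, and Notch3 with Jag1 for contact between the endothelium and the mural cells around it, the pericytes and smooth muscle cells.

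Promoter sequences of the receptor Notch3, of Nrarp and of the ligand Dll4 are shown because the results below turn on these genes: Notch3 and Nrarp in mural cells and Dll4 in endothelial cells. RefSeq (GRCm38.p6) promoter entries matched 7 of the 10 members, and Hey1, Heyl and Nrip2 are only named. Each line gives the 250 bases before the annotated start, 5′ to 3′ on the strand of the gene, with matches to any of the 3 searched motifs in capitals.
Notch3 (chr17:32166891-32167140, minus strand): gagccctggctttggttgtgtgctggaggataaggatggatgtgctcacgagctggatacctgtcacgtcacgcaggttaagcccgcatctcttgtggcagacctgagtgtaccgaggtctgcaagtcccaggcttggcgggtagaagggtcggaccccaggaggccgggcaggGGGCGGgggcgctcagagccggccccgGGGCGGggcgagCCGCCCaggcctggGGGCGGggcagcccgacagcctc
Nrarp (chr2:25180508-25180757, plus strand): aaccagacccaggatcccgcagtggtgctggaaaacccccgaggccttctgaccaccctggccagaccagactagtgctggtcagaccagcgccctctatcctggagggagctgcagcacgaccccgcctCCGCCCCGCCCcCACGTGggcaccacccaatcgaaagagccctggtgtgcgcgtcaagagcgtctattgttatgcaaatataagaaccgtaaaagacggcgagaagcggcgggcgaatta
Dll4 (chr2:119325534-119325783, plus strand): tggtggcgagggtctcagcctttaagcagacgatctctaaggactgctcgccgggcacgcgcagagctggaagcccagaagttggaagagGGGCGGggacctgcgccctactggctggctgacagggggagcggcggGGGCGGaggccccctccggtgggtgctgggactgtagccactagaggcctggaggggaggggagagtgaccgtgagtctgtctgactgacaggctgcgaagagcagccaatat
The RBPJ core TGGGAA, searched on both strands, was found in 0 of the 7 windows and in 21.6% of 32851 promoter windows of the same length. The GC box GGGCGG was found in 5 of 7 (Notch1, Notch2, Notch3, Dll4 and Nrarp) against 32.7% of all windows. The E-box CACGTG was found in Nrarp alone among the 7, against 6.02% of all windows. A match describes letters only, and its absence says only that these letters are not in this window.

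In the GENCODE annotation of the mouse build GRCm38, the receptor genes lie at chr2:26457903-26516663 (Notch1, ENSMUSG00000026923), chr3:98013527-98150361 (Notch2, ENSMUSG00000027878), chr17:32120820-32166852 (Notch3, ENSMUSG00000038146) and chr17:34564268-34588503 (Notch4, ENSMUSG00000015468). The ligand genes lie at chr2:137081456-137116644 (Jag1, ENSMUSG00000027276) and chr2:119325784-119335962 (Dll4, ENSMUSG00000027314). The output genes lie at chr3:8663359-8667256 (Hey1, ENSMUSG00000040289), chr4:123233556-123249875 (Heyl, ENSMUSG00000032744), chr2:25180758-25183339 (Nrarp, ENSMUSG00000078202) and chr6:128399296-128416427 (Nrip2, ENSMUSG00000001520).

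The study profiled cells from the dissociated hearts of adult mice of 8 to 30 weeks, sorted by fluorescence into 384-well plates and sequenced with Smart-Seq2, which reads whole transcripts and carries no molecular identifiers. The mice were 3 of strain ACTA2GFP:CSPG4dsRED, which carry a green reporter named for smooth muscle actin and a red reporter named for the proteoglycan NG2 of pericytes and other mural cells (368, 245 and 336 cells, called double-reporter mice 1, 2 and 3), and a C57BL/6 mouse with no reporter (347 cells). Another 2 C57BL/6 mice, 1 ACTA2GFP mouse and 1 CSPG4dsRED mouse gave 1 to 4 cells each and enter no comparison. No treatment is named in the labels. The gate used for sorting is not given in the sources used here, and both the strains and the mice sat on plates of their own, so strain, mouse and plate cannot be told apart. The design text describes male mice, while the labels call double-reporter mouse 3 female and give the cells of the ACTA2GFP mouse both sexes.

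Cells were clustered without the Notch pathway genes, the cell type markers and Rgs5, and clusters were named from the markers. Gm44596 and Gm38287, which overlap Nrip2 and Nrarp, were not removed before clustering. Smooth muscle-like cells (77 and 22 in double-reporter mice 2 and 3, and 77 with 49 of 2 clusters in mouse 1) raised all 10 smooth muscle markers, pericyte-like cells (49, 13 and 9) all 10 pericyte markers, and fibroblast-like cells (75, 111 and 222) held 15107 to 23288 counts per 1000000 counts (CPM) of the 10 fibroblast markers together. The fibroblast-like class was made up differently in each mouse. In mice 1, 2 and 3, cluster 2 gave 67, 61 and 29 of its cells, cluster 0 gave 1, 23 and 149, and cluster 5 gave 7, 27 and 44. The mix of clusters thus differs between mice in every value of this class. Nearly all endothelial cells came from C57BL/6 mouse 1. A pair of clusters stayed unnamed: cluster 4, with markers of smooth muscle, pericytes and fibroblasts together (20.9%, 8.16% and 0.893% of the cells of double-reporter mice 1, 2 and 3), and cluster 13 of C57BL/6 mouse 1 (8.65% of its cells), with endothelial, smooth muscle, pericyte and Schwann markers together. Cells held 50476 to 811982 counts, with a median of 274702. A level below is the CPM of the counts summed over the cells of a class in 1 mouse, each mouse is 1 replicate, and counting intervals cover counting error only.

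Notch3, the receptor of mural cells, had its highest levels in the pericyte-like and smooth muscle-like cells of the double-reporter mice, among the named classes with at least 5 cells. Its level in pericyte-like cells was 1128, 1527 and 983 CPM in double-reporter mice 1, 2 and 3. In smooth muscle-like cells it was 496, 675 and 1009 CPM, which overlaps the pericyte-like range at its upper end. Fibroblast-like cells held 18.7, 49.1 and 34.2 CPM and Schwann-like cells, the glia of the cardiac nerves, 2.41, 3.21 and 1.09 CPM. All values of the 2 mural classes, each taken as a whole, thus lay above all values of these other classes. The smooth muscle-like class pools 2 clusters. Of these, cluster 6, described further on, held only 38.7 to 40.9 CPM of Notch3 over mice 1 and 2, within the fibroblast-like range. Cluster 11 was named mesothelial-like, after the cells that line the surface of the heart, and held 117 CPM in its 5 cells of mouse 2, where the 6 mesothelial markers summed to 10836 CPM. Its 32 cells of mouse 3 go against that name, with all 6 mesothelial markers at 0 and the 10 fibroblast markers at 16950.3 CPM, and held 164 CPM of Notch3. The order of the means was thus pericyte-like (1213 ± 282 CPM, SD, n = 3), smooth muscle-like (727 ± 261), fibroblast-like (34.0 ± 15.2) and Schwann-like (2.24 ± 1.07), and of these 4 only the first 2 overlapped.

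The mean share of cells with Notch3 over the mice had the same order. In mouse 2 alone, the Schwann-like share lay above the fibroblast-like one. With every cell thinned to 50000 counts, Notch3 was found in 93.9% of 49 pericyte-like cells of mouse 1 (95% Clopper-Pearson interval 83.1 to 98.7) and in all 13 and 9 of mice 2 and 3. Shares in smooth muscle-like cells were 69.8%, 72.7% and 81.8%. In fibroblast-like cells they were 10.7%, 16.2% and 16.2%. The Schwann-like share, in a class with hardly any Notch3 counts, was 5.88% in mouse 1, 25.0% of 12 cells in mouse 2 and 5.56% in mouse 3. The fibroblast-like shares lay within that range only through the 12 cells of mouse 2. In mice 1 and 3 they lay above the Schwann-like share of the same mouse. Summed Notch3 levels, given above, were higher in fibroblast-like than in Schwann-like cells in every mouse. Median depths were 333475, 99227 and 146471 counts in pericyte-like and 430108, 127194 and 131341 in Schwann-like cells. Without thinning, the pericyte-like share of mouse 1 was 98.0%. The opposite-strand gene Gm17276 overlaps 45.7% of the Notch3 locus (4073 against 86281 counts in all cells).

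**Figure D1:**
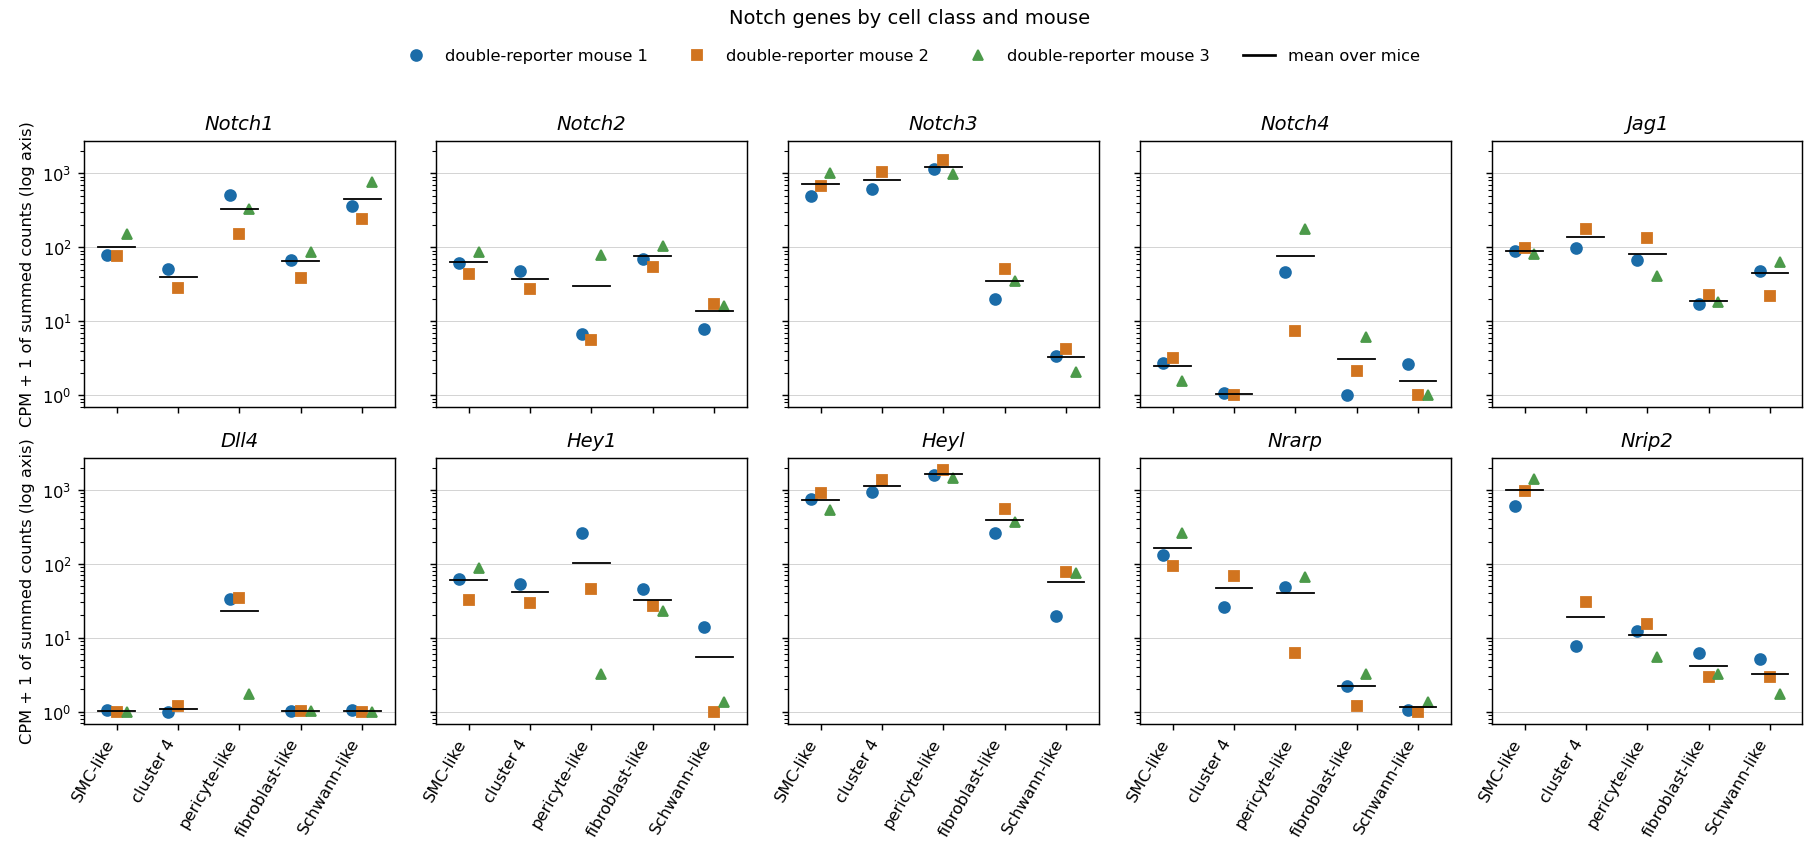
Levels of the 10 Notch genes per class in the 3 double-reporter mice, as CPM + 1 of summed counts on a log axis. Each point is 1 mouse with at least 5 cells of the class and the line is the mean over mice. Notch3 and Heyl are at 496 CPM or more in every mural point, while Nrip2 is so in smooth muscle-like cells alone.

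Notch1, a receptor studied most in endothelium, was measured in every class and varied more between mice. Pericyte-like cells held 515, 151 and 332 CPM and Schwann-like cells 356, 238 and 751 CPM. Smooth muscle-like cells held 76.7, 75.8 and 150 CPM, and fibroblast-like cells 66.1, 37.9 and 85.6 CPM. The pericyte-like and Schwann-like ranges overlapped widely, while the smooth muscle-like and fibroblast-like ranges shared only 75.8 to 85.6 CPM. In mouse 2, thinned Notch1 shares were 40.5% to 75.0% in all of these classes, and 45.0% in the smooth muscle-like cells of cluster 6, where the summed level was only 6.78 CPM, so a share in that mouse reads many cells with few counts.

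Notch2 and Notch4 were low in mural cells. Notch2 was 60.9, 42.0 and 86.1 CPM in smooth muscle-like cells and 68.2, 53.6 and 102 CPM in fibroblast-like cells, which overlap. Pericyte-like cells of mice 1 and 2 held 5.62 and 4.53 CPM of Notch2; in mouse 3 the value of 77.3 CPM came to 98.1% from 1 cell. Notch4, described mainly in endothelium, was 0.553 to 2.22 CPM in smooth muscle-like cells and 0 to 5.05 CPM in fibroblast-like cells. Its pericyte-like values of 44.9, 6.47 and 178 CPM rested on few cells (95.8% of the counts of mouse 3 came from 1 cell). Per kilobase of exonic length, which allows levels of different genes to be compared, mean receptor levels in pericyte-like cells were 150 CPM for Notch3, 23.4 for Notch1, 9.47 for Notch4 and 2.70 for Notch2. In smooth muscle-like cells the values were 89.8 CPM per kilobase for Notch3, 7.08 for Notch1, 5.84 for Notch2 and 0.186 for Notch4.

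Of the ligands, Jag1 was found at similar levels in both mural classes and Dll4 hardly at all in smooth muscle-like or fibroblast-like cells. Jag1 was 88.5, 96.8 and 80.2 CPM in smooth muscle-like and 66.8, 131 and 39.4 CPM in pericyte-like cells, which overlap. It was 15.9, 21.3 and 17.0 CPM in fibroblast-like cells, below every mural value. Within the fibroblast-like cells, cluster 5 held the most Jag1, with 50, 44.5 and 31.4 CPM. Dll4 had 2 counts in all smooth muscle-like cells of mouse 1 and 0 in mice 2 and 3, where a count of 0 allows up to 0.201 and 0.830 CPM. Dll4 in pericyte-like cells was 32.1, 33.6 and 0.743 CPM.

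Endothelial markers were also measured in pericyte-like cells. The 10 listed endothelial markers summed to 1574, 2189 and 1242 CPM in pericyte-like cells of mice 1, 2 and 3, to 635, 527 and 795 CPM in smooth muscle-like cells and to 120, 128 and 185 CPM in fibroblast-like cells. In pericyte-like cells, 6, 7 and 3 of the 10 markers exceeded 10 CPM and 2, 1 and 4 were at 0. Without the 3, 3 and 0 pericyte-like cells that held over 500 CPM of 8 of these markers, Dll4 was 28.9, 0 and 0.743 CPM, Hey1 201, 1.72 and 2.23 CPM, and Notch3 1153, 1868 and 983 CPM. The part of endothelial RNA in the pericyte-like level of Dll4 in mouse 1 was not tested.

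Heyl and Nrip2 separated the mural classes when each class was taken as a whole. Heyl, a Hey-family repressor known in vascular smooth muscle, was 1600.5, 1869 and 1447 CPM in pericyte-like cells, 746, 895 and 534 CPM in smooth muscle-like cells and 260.3, 556 and 368 CPM in fibroblast-like cells. Every pericyte-like value lay above every smooth muscle-like value, while the smooth muscle-like and fibroblast-like ranges met at 534 and 556 CPM. Schwann-like cells held 18.6, 77.1 and 73.1 CPM. The means were 1639 ± 214, 725 ± 182, 395 ± 150 and 56.3 ± 32.7 CPM (SD, n = 3 mice) in that order. Fibroblast-like clusters differed in Heyl, with a mean of 753 CPM in cluster 5 (490 to 1019 over 3 mice) and 199 CPM in cluster 2. Cluster 0 had a mean of 525 CPM over 2 mice. The cluster 5 mean thus lay near the smooth muscle-like mean.

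Nrip2, which encodes a nuclear receptor interacting protein, followed another pattern. Its level was 605, 952 and 1399.6 CPM in smooth muscle-like cells. It was 11.2, 14.2 and 4.46 CPM in pericyte-like, 5.27, 1.94 and 2.22 CPM in fibroblast-like, and 4.13, 1.93 and 0.727 CPM in Schwann-like cells. Values of the whole smooth muscle-like class thus lay above all others. The lowest pericyte-like value lay just above the highest Schwann-like one, and the fibroblast-like values overlapped both. Smooth muscle-like cluster 6 alone, described further on, held 4.01 to 19.0 CPM over mice 1 and 2, which overlaps the pericyte-like range. The same-strand gene Gm44596 overlaps 47.7% of the Nrip2 locus, and the opposite-strand gene Itfg2 also overlaps it (16237 and 9500 against 48840 counts); strand use in counting is not given in the sources used here, so reads of overlapping genes cannot be told apart.

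Nrarp, a small ankyrin-repeat protein that is induced by Notch and limits it, was 131, 92.1 and 258 CPM in smooth muscle-like cells. Pericyte-like cells held 47.6, 5.17 and 66.1 CPM, of which 98.9% in mouse 3 came from 1 cell. Fibroblast-like cells held 1.26, 0.197 and 2.27 CPM. Thinned shares of cells with Nrarp were 32.5%, 44.2% and 59.1% in smooth muscle-like cells, 14.3%, 15.4% and 11.1% among pericyte-like cells, and 2.67%, 0% and 2.25% in fibroblast-like cells. The opposite-strand gene Gm38287 overlaps 99.1% of the Nrarp locus and held 12546 counts against 14787 of Nrarp, so the values of Nrarp may include reads of its partner.

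Hey1, a Hey-family repressor and Notch target in endothelium, varied too much between mice to order the classes. It was 60.3, 31.4 and 87.7 CPM in smooth muscle-like cells, 256, 45.3 and 2.23 CPM in pericyte-like cells and 45.0, 25.9 and 21.9 CPM in fibroblast-like cells, with overlap between all of them. Per kilobase, the mean levels of the 4 output genes in smooth muscle-like cells were 262 CPM for Nrip2, 142 for Heyl, 62.1 for Nrarp and 18.3 for Hey1. In pericyte-like cells they were 321 CPM per kilobase for Heyl, 31.0 for Hey1, 15.3 for Nrarp and 2.65 for Nrip2.

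Pericyte-like and smooth muscle-like cells differed in 2 of the 10 genes. Nrip2 was higher in smooth muscle-like cells, by 6.71 on the log2 scale (SE 0.69, edgeR quasi-likelihood test with Benjamini-Hochberg adjustment over all genes, adjusted p = 0.0034), in 3 of 3 mice. Heyl was lower in smooth muscle-like cells, with a log2 change of -1.20 (SE 0.24, edgeR adjusted p = 0.0435), in 3 of 3 mice. Over all genes, 380 of 15692 tested were called (2.42%: 1.66% with the higher level in smooth muscle-like cells and 0.758% with the lower), and 2721 had an unadjusted p under 0.05. The remaining 8 members did not pass: Notch3 had a log2 change of -0.77 (SE 0.33, edgeR adjusted p = 0.275), Notch1 -1.63 (adjusted p = 0.105), Nrarp 2.55 (adjusted p = 0.115) and Dll4 -9.47 (SE 2.05, adjusted p = 0.0576). Notch2 had 2.02, Notch4 -4.62, Jag1 0.30 and Hey1 0.089, with edgeR adjusted p of 0.263 to 0.986. The median over the members was -0.34 beside 0.35 over all genes tested. The call of Heyl did not hold when any 1 of the 3 mice was left out and held in 6 of 14 alternatives; without the block for the mouse, Dll4 was called (also in 2 other settings) and Heyl was not. With cluster 6 as the only smooth muscle-like cells, the log2 change of Nrip2 was -0.47.

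Against fibroblast-like cells, smooth muscle-like cells had higher Notch3, Nrarp and Nrip2. The log2 change was 4.49 for Notch3 (SE 0.37, edgeR adjusted p = 0.00083), 7.55 for Nrarp (SE 0.87, adjusted p = 0.00434) and 8.43 for Nrip2 (SE 0.74, adjusted p = 0.000979), each higher in 3 of 3 mice. With the smooth muscle-like cells of cluster 6 alone, described further on, 0 members were called and the log2 change was -0.55 for Notch3 and -1.43 for Nrarp, and without mouse 1 or without mouse 3 Nrarp was not called. In this comparison 508 of 15692 genes were called (3.24%), 262 higher (1.67%) and 246 lower (1.57%), and with DESeq2 725 were higher and 1027 lower. Jag1, at 2.33 (SE 0.57, adjusted p = 0.0786), and Heyl, at 0.92 (SE 0.24, adjusted p = 0.0948), lay just outside the threshold in edgeR. Notch1 had a log2 change of 0.74, Notch2 -0.25, Notch4 0.88, Dll4 -1.25 and Hey1 1.17, with edgeR adjusted p of 0.56 to 0.988. The median over members was 1.04 beside -0.15 over all genes.

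Pericyte-like cells had higher Notch1, Notch3, Heyl and Nrarp than fibroblast-like cells. The log2 change was 5.26 for Notch3 (SE 0.39, edgeR adjusted p = 0.000531), 5.01 for Nrarp (SE 0.77, adjusted p = 0.0101), 2.38 for Notch1 (SE 0.45, adjusted p = 0.0226) and 2.11 for Heyl (SE 0.25, adjusted p = 0.00307), in 3 of 3 mice each. Over all genes 782 of 15692 were called (4.98%: 1.73% higher and 3.26% lower). Notch3 and Heyl were called in all 13 alternatives, Notch1 in 8 and Nrarp in 9 of the 13. Notch1 was not called when any 1 of the 3 mice was left out, and Nrarp was not called without mouse 1 or without mouse 3. Dll4 had a log2 change of 8.22 (SE 1.95, edgeR adjusted p = 0.0529) and Jag1 2.02 (SE 0.57, adjusted p = 0.0894). Notch2 had -2.28, Notch4 5.51, Hey1 1.08 and Nrip2 1.72, with edgeR adjusted p of 0.132 to 0.685. The median over members was 2.25 beside -0.55 over all genes. These 3 comparisons share samples with each other, and in those against fibroblast-like cells the mix of fibroblast-like clusters differs between mice.

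**Figure D2:**
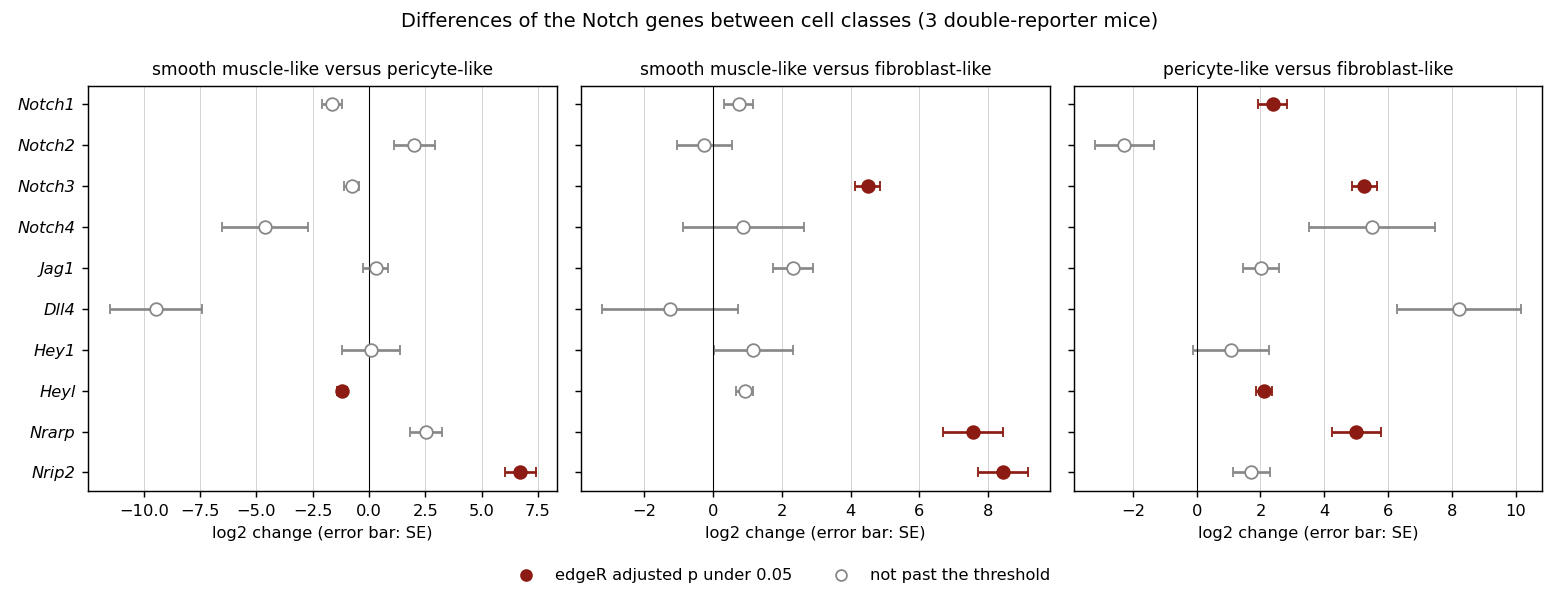
Log2 change of the 10 Notch genes in 3 comparisons of classes over the 3 double-reporter mice, with SE as error bar. Filled points passed the edgeR threshold of 0.05: Nrip2 and Heyl in the left panel, Notch3, Nrarp and Nrip2 in the middle, and Notch1, Notch3, Heyl and Nrarp on the right.

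Other genes of the pathway, 49 in 7 lists by role, were mostly not called. Of 41 tested, 0 were called between smooth muscle-like and pericyte-like cells by edgeR, with 5 at an unadjusted p under 0.05. Against fibroblast-like cells, Hey2, a further Hey-family target, was higher in smooth muscle-like cells (117, 109 and 132.3 against 7.25, 2.57 and 1.23 CPM, log2 change 5.35, SE 0.94, edgeR adjusted p = 0.0232). Hey2 was also higher in pericyte-like cells (54.9, 194 and 37.9 CPM, 4.70, SE 0.92, adjusted p = 0.0274). Pericyte-like cells further had higher Neurl1b, an E3 ligase that acts on Notch ligands (47.3, 82.1 and 170 against 1.16, 3.16 and 4.64 CPM, log2 change 5.13, SE 1.16, edgeR adjusted p = 0.0457). Dtx3 of the Deltex family was higher there as well (924, 973 and 770.3 against 133, 209 and 131.8 CPM, 2.54, SE 0.29, edgeR adjusted p = 0.00283). In all, 1 of 41 pathway genes was called in the first of these comparisons and 3 of 41 in the second, none of them lower, near the 3.24% and 4.98% called over all genes. None of the 10 receptor proteases, 9 nuclear complex genes or 5 receptor glycosylation genes (3 tested) was called in any of the 3 comparisons of classes, with 0 to 2 of a list at an unadjusted p under 0.05. Hes1, the Hes-family target, was 243, 210.2 and 512 CPM in smooth muscle-like, 304, 290.4 and 275 CPM in pericyte-like and 123, 126.3 and 136 CPM in fibroblast-like cells and was not called (edgeR adjusted p = 0.956, 0.123 and 0.0987 in the 3 comparisons).

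Smooth muscle-like cells were then compared by their level of Rgs5, a regulator of G-protein signalling. Cells with at least 1000 CPM of Rgs5 had higher Notch3 and Nrip2 than cells below it. Only mice 1 and 2 had at least 5 cells in both ranges (64 and 62 cells, 39 and 38 cells), so that 1 residual degree of freedom was left; mouse 3 had 19 and 3. The ranges are a split of a continuous level, and 13 and 6 cells of mice 1 and 2 lay between 500 and 2000 CPM. Notch3 was 965 and 1189 CPM in Rgs5-high cells against 143 and 217 CPM in Rgs5-low cells (log2 change 2.60, SE 0.18, edgeR adjusted p = 0.0381). Nrip2 was 1031 and 1520.1 CPM against 285 and 446 CPM (1.81, SE 0.15, edgeR adjusted p = 0.0436). Over all genes, 45 of 14011 were called (0.321%), 12 higher (0.0856%) and 33 lower (0.236%), and DESeq2 called 484 higher and 757 lower.

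The other members did not pass between the Rgs5 ranges. Nrarp was 252 and 166 CPM against 39.6 and 26.1 CPM (log2 change 2.67, SE 0.28, edgeR adjusted p = 0.0651). Notch1 was 125 and 139 CPM against 40.2 and 19.7 CPM, and Hey1 118 and 43.7 CPM against 16.8 and 20.4 CPM. Jag1 was 121 and 128 CPM against 64.4 and 69.5 CPM. Heyl lay the other way, at 562 and 718 CPM against 885 and 1053 CPM (log2 change -0.61, SE 0.14, edgeR adjusted p = 0.23). In both mice Notch1, Notch3, Jag1, Hey1, Nrarp and Nrip2 were thus higher in value in Rgs5-high cells. Of these only Notch3 and Nrip2 were called, and the share of all genes higher in both mice was not counted. Notch2 had a log2 change of -0.96 and Notch4 of 0.68 (edgeR adjusted p = 0.796 and 0.996). Dll4 was not tested here for low counts, and the median over the 9 members tested was 1.81 beside -0.05 over all genes. Neither call held without the block for the mouse, nor with the split at 300 CPM, and Notch3 was called in 6 and Nrip2 in 7 of 10 alternatives. These alternatives are not independent. The setting of at least 10 cells per sum used the same sums as the main fit and had to repeat it. The splits by subcluster and by cluster held the same numbers of cells in mice 1 and 2. Of the pathway lists, 0 of 40 genes tested were called by edgeR, 5 of them at an unadjusted p under 0.05.

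The Rgs5 ranges cut across 2 clusters of smooth muscle-like cells, and the Notch genes differed between these as well. Cluster 3 (77, 57 and 18 cells) held most of the Rgs5-high cells and cluster 6 (49, 20 and 4 cells) most of the Rgs5-low ones. Nrip2 was 1124, 1365 and 1798 CPM in cluster 3 and 4.01, 19.0 and 2.49 CPM in cluster 6. Notch3 was 889, 957 and 1298 CPM in cluster 3 and 40.9, 38.7 and 0 CPM in cluster 6, where 0 counts in 4 cells of mouse 3 allow up to 3.74 CPM. Nrarp was 243, 133 and 332 CPM against 0.440, 0.219 and 0 CPM. No value of cluster 6 reached the lowest value of cluster 3 for any of these 3 genes. The same held without mouse 3, whose 4 cells of cluster 6 are fewer than were asked of a sum elsewhere. The clusters were themselves cut by expression, and the share of all genes set apart between them in this way was not counted. The overlapping genes Gm44596 and Gm38287 were not removed before clustering, and Gm44596 was among the leading genes of cluster 3. The split of Nrip2 and Nrarp may thus not be independent of the clusters.

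Heyl did not share that pattern. It was 577, 819 and 644 CPM in cluster 3 and 943, 1068 and 147 CPM in cluster 6. In mice 1 and 2 the cluster 6 values lay above every cluster 3 value, and the low value of mouse 3 came from 4 cells, fewer than the 5 asked of a sum elsewhere. Thinned shares in cluster 6 were 26.5% and 30.0% for Notch3, 16.3% and 35.0% for Nrip2, 0% and 0% for Nrarp and 93.9% and 95% for Heyl in mice 1 and 2, at median depths of 382060 and 209182 counts. In cluster 3 they were 97.4% and 87.7% for Notch3, 90.9% and 94.7% for Nrip2, 53.2% and 59.6% for Nrarp and 76.6% and 86.0% for Heyl, at 277896 and 178255 counts. Markers of other classes also differed: the 10 fibroblast markers summed to 599, 801 and 1335 CPM in cluster 3 and to 5518, 8127 and 5905 CPM in cluster 6, and the 10 pericyte markers to 3819, 3646 and 4362 CPM against 937, 1381 and 680.2 CPM. The 10 endothelial markers summed to 1042, 719 and 1011 CPM in cluster 3 against 164, 93.1 and 38.6 CPM in cluster 6, and to 1076 and 881 CPM in the Rgs5-high against 304 and 212 CPM in the Rgs5-low cells of mice 1 and 2. The part of these other classes in the Notch values was not tested.

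**Figure D3:**
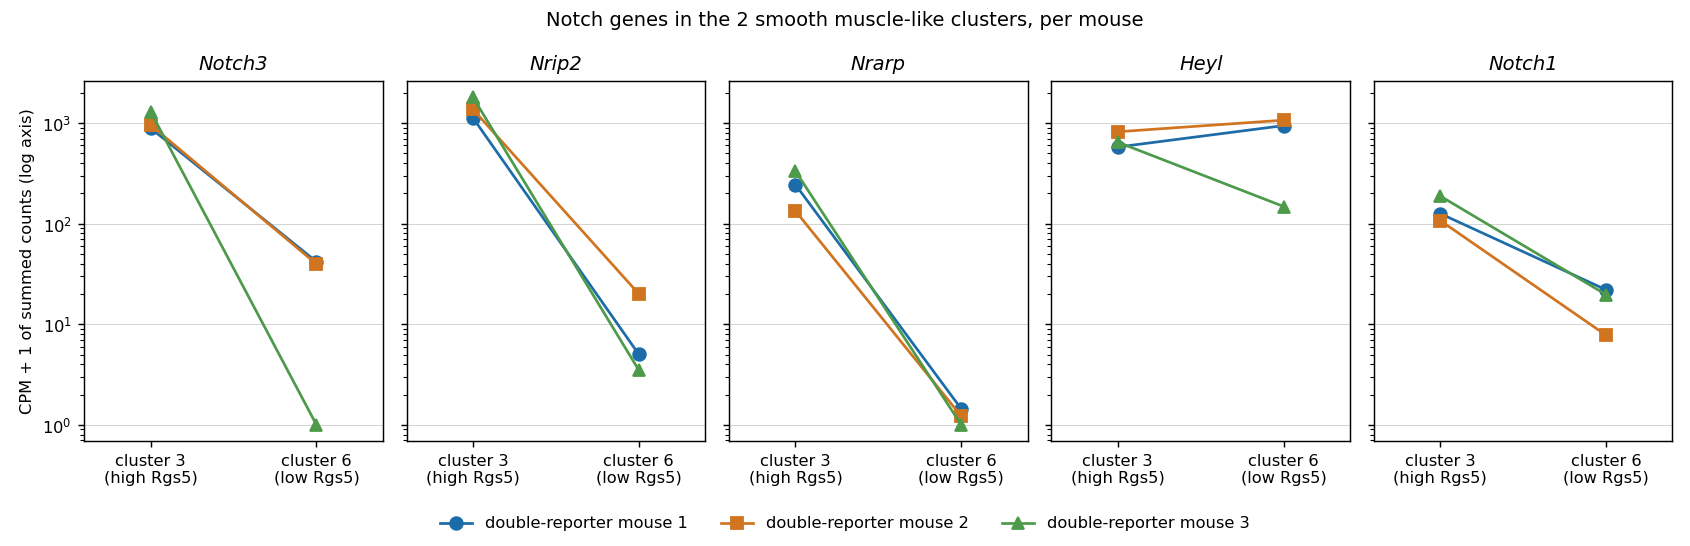
Levels of 5 Notch genes in the 2 smooth muscle-like clusters, as CPM + 1 of summed counts on a log axis. Each line joins the values of 1 double-reporter mouse; Notch3, Nrip2, Nrarp and Notch1 lie lower in cluster 6 in all 3 mice and Heyl only in the 4 cells of mouse 3.

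Within cluster 3, the Rgs5 ranges could be set apart in mice 1 and 2. The 17 and 19 Rgs5-low cells of cluster 3 held 1113 and 964 CPM of Nrip2, beside 1128 and 1577 CPM in its 60 and 38 Rgs5-high cells. In cluster 6, the 45 and 19 Rgs5-low cells held 4.24 and 20.1 CPM. For Nrip2 the values of Rgs5-low cells thus lay with their cluster, though Gm44596, which overlaps Nrip2, was not removed before clustering. Notch3 was 435 and 431 CPM in the Rgs5-low and 1056 and 1233 CPM in the Rgs5-high cells of cluster 3, beside 44.3 and 40.9 CPM in the Rgs5-low cells of cluster 6. Nrarp was 155 and 57.6 CPM in the Rgs5-low and 276 and 172 CPM in the Rgs5-high cells of cluster 3. For Notch3 and Nrarp the Rgs5-low cells of cluster 3 lay between the other values in both mice. These are values of 2 mice and no test was made.

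Across single smooth muscle-like cells, Notch3 went with Nrip2 and Nrarp. Spearman correlations of log2(CPM + 1) between Notch3 and Nrip2 were 0.57, 0.53 and 0.44 in the 3 mice, and between Notch3 and Nrarp 0.50, 0.39 and 0.16. Both Notch3 and Nrip2 had counts in 73.8%, 81.8% and 77.3% of the cells. Between Notch3 and Heyl the correlation was -0.30, -0.22 and 0.21. These are descriptions over cells that share a mouse, a plate and a range of depths. Thinned to 50000 counts, the correlation of Notch3 and Nrip2 in mouse 1 was 0.58.

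Within 1 cluster the correlations were smaller. In cluster 3 alone, the correlation of Notch3 and Nrip2 was -0.03 in 77 cells of mouse 1 and 0.16 in 57 cells of mouse 2, and that of Notch3 and Nrarp was 0.21 and 0.10. Notch3 and Heyl had counts together in 98.0% of the 49 pericyte-like cells of mouse 1, with a correlation of 0.01. Heyl had counts in 100% of these cells, so this joint share is the share of Notch3. Notch1 and Notch3 correlated at 0.34, 0.39 and 0.22 in smooth muscle-like cells and had counts together in 45.2%, 79.2% and 68.2% of them. Joint shares, here and above, are given without the product of the single shares and describe detection only.

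**Figure D4:**
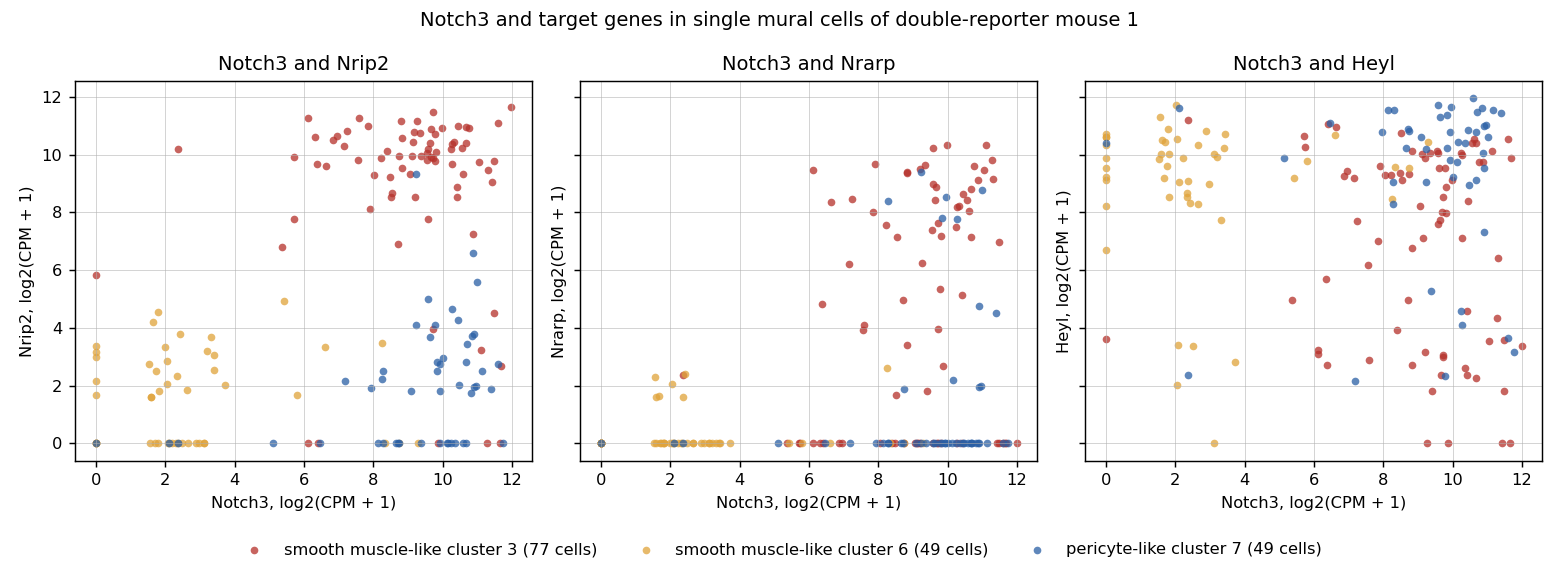
Notch3 against Nrip2, Nrarp and Heyl in single cells of double-reporter mouse 1, both axes in log2(CPM + 1). Each point is a cell, coloured by cluster: cluster 3 lies high in Notch3 and Nrip2, cluster 6 low in both, and pericyte-like cells high in Notch3 and low in Nrip2.

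Among the endothelial cells of C57BL/6 mouse 1, which have no replicate and so no test, Dll4 and Hey1 were higher in value in the cluster low in Aplnr and Car4. Cluster 1 (168 cells) held 1187 CPM of Aplnr, the apelin receptor, and 398 CPM of Car4, a carbonic anhydrase of capillaries. Cluster 10 (59 cells) held 64.6 CPM of Aplnr and 102 CPM of Car4 and raised 5 of 8 listed arterial markers. It was not low in the whole capillary list: it raised 3 of the 5 listed capillary markers, which summed to 5611.5 CPM against 8361 in cluster 1. The smooth muscle markers summed to 669 and 660.3 CPM and the pericyte markers to 256 and 233 CPM in clusters 1 and 10. Dll4 was 272 CPM (exact Poisson interval 267 to 276.2) in cluster 1 and 973 CPM (959 to 987) in cluster 10. Hey1 was 90.4 CPM (87.7 to 93.1) and 536 CPM (526 to 547). Jag1 was 24.0 CPM (22.7 to 25.5) and 96.7 CPM (92.3 to 101), Notch1 253 CPM (248 to 257) and 393 CPM (384 to 402), and Notch4 74.1 CPM (71.7 to 76.5) and 82.7 CPM (78.6 to 86.9).

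Shares of cells gave the same order for Dll4 and Hey1. Thinned to 50000 counts, Dll4 was found in 79.7% of cluster 10 (67.2 to 89.0) and 45.2% of cluster 1 (37.6 to 53.1), and Hey1 in 71.2% (57.9 to 82.2) and 23.2% (17.1 to 30.3). Median depths were 298136 and 295159 counts. Smooth muscle-like cells had a thinned Dll4 share of 0% in each of the 3 double-reporter mice. Those cells sat on other plates with few endothelial cells, so they give no background for this plate. In C57BL/6 mouse 1, the 10 endothelial markers summed to 4068 CPM in 6 macrophage-like cells and 1267 CPM in 4 Schwann-like cells. Schwann-like cells of the double-reporter mice held 8.33 to 33.1 CPM of them. The part of this in the Dll4 and Hey1 shares was not tested. With cells of clusters 1, 10 and 13 ranged by their summed Aplnr and Car4 level, Dll4 was 670.03 CPM in 97 cells under 100 CPM, 438 CPM in 49 cells of 100 to 1000 CPM and 263 CPM in 111 cells of 1000 CPM or more. Hey1 was 456, 186 and 64.8 CPM and Notch1 396, 265 and 175 CPM in the same order. Notch4, at 76.6, 76.5 and 58.7 CPM, and Nrarp, at 74.8, 78.8 and 50.7 CPM, had like values in the first 2 ranges. Mural markers moved with these ranges too: the smooth muscle markers summed to 2102, 1423 and 845 CPM and the pericyte markers to 1047, 794 and 436 CPM, and mixed cluster 13 is included. Their part in these trends was not tested. Over these 257 cells of 1 plate, Spearman correlations with the Aplnr and Car4 level were -0.26 for Hey1, -0.20 for Jag1, -0.16 for Notch3 and for Dll4, -0.15 for Heyl, -0.13 for Notch1, and -0.064 to 0.058 for Nrip2, Notch2, Nrarp and Notch4.

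Endocardial-like cells, which line the heart chambers and were named with Npr3 (648 CPM), stood apart from the endothelial clusters in the values of Notch1 and Nrarp. In 65 cells Notch1 was 506 CPM (496 to 515), above both endothelial clusters, and was found in 89.2% of cells after thinning (79.1 to 95.6). Hey1 was 372 CPM (364 to 380.3) and Dll4 215 CPM (208 to 221), the latter below cluster 1. Nrarp was 7.24 CPM (6.15 to 8.47), with 93.6% of it from 1 cell, beside 54.2 CPM (52.2 to 56.3) in cluster 1 and 87.3 CPM (83.1 to 91.6) in cluster 10. Notch3 was 0.186 CPM (0.0506 to 0.475) in endocardial-like cells, against 10.7 and 31.6 CPM in clusters 1 and 10.

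The 11 lymphatic endothelial-like cells of the same mouse had Notch1 and Dll4 but hardly any Hey1. Notch1 was 321 CPM (302 to 340), Dll4 230 CPM (214 to 246), of which 60.3% came from 1 cell, and Notch2 49.9 CPM (42.8 to 57.9). Hey1 was 4.26 CPM (2.38 to 7.02), and Notch3 and Nrarp had 0 counts, which allows up to 0.851 CPM. Per kilobase, the levels in endothelial clusters 1 and 10 were 70.5 and 253 CPM for Dll4, 27.7 and 164 for Hey1, 21.0 and 33.8 for Nrarp, 17.7 and 27.6 for Notch1, and 9.19 and 10.3 for Notch4. Since endothelial and mural cells came from mice of different strains and plates, no test was made between them.

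**Figure D5:**
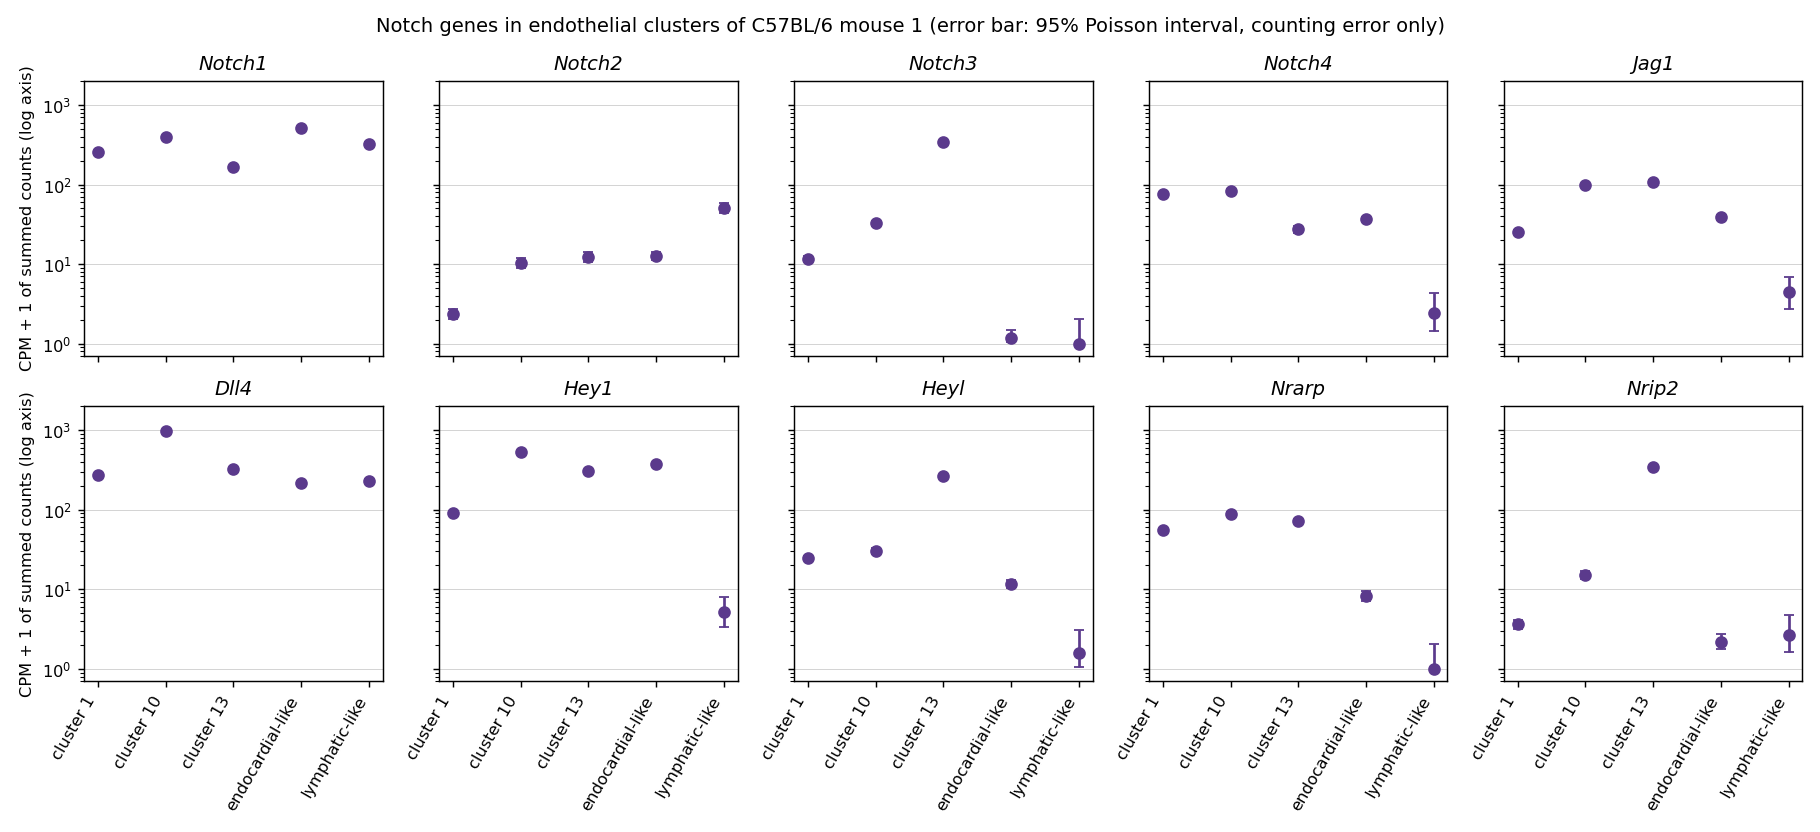
Levels of the 10 Notch genes in 5 clusters of C57BL/6 mouse 1, as CPM + 1 of summed counts on a log axis with exact 95% Poisson intervals that cover counting error only. Dll4 and Hey1 are highest in cluster 10, Notch1 in the endocardial-like cells, and Notch3, Heyl and Nrip2 in the unnamed cluster 13.

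Of the 2 unnamed clusters, cluster 13 held mural and endothelial Notch genes together and cluster 4 those of mural cells. In the 30 cells of cluster 13, Notch3 was 340.2 CPM (330.2 to 350.5), Nrip2 341 CPM (331 to 351) and Heyl 266 CPM (257 to 275), beside Dll4 at 320 CPM (310.2 to 329.9) and Hey1 at 304 CPM (295 to 314). Its 10 endothelial markers summed to 7048 CPM, its smooth muscle markers to 5326 CPM, its pericyte markers to 3233 CPM and its 8 Schwann markers to 1899.9 CPM (101 in cluster 1), at a median depth of 423694 counts against 295159 in cluster 1. At 2 times the mean over clusters or more, as the naming asked, were 5 of 10 endothelial, 2 of 8 Schwann, 1 of 10 pericyte and 0 of 10 smooth muscle markers. Within the cluster, the Spearman correlation was 0.62 between Notch3 and Nrip2, 0.58 between Notch3 and Heyl and 0.42 between Notch1 and Hey1. Whether these were wells with more than 1 cell was not tested beyond the doublet caller, which marked 1 of the 347 cells of the mouse. In cluster 4, Notch3 was 605 and 1037 CPM in mice 1 and 2, Heyl 933 and 1345 CPM, Nrip2 6.64 and 29.9 CPM and Nrarp 25.0 and 67.7 CPM. Dll4 had 0 and 1 counts there and Notch4 2 and 0. The Notch3 and Heyl values of cluster 4 lay between those of smooth muscle-like and pericyte-like cells of the same mouse, while Nrip2 lay far below the smooth muscle-like values in both mice. The smooth muscle-like values pool clusters 3 and 6. Set beside cluster 3 alone (889 CPM in mouse 1), Notch3 of cluster 4 was lower in mouse 1 and higher in mouse 2. Set beside cluster 6 alone (943 and 1068 CPM), Heyl of cluster 4 was just lower in mouse 1 and higher in mouse 2.

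The genes most like each member were taken over 22 sums of class and mouse, from 11 classes and 8819 genes, by Pearson correlation of log2(CPM + 1). The sums of cluster 11 in mice 2 and 3 are among them. Points share mice, plates and the broad difference between endothelial, mural and other classes. Notch3 was closest to Foxs1 (r = 0.970), a forkhead gene, then Rasl11a (0.955), Gm16567 (0.951), Aspn (0.941) and C1s1 (0.938). Heyl was closest to C1s1 (0.944), and also had Gm16567 (0.932) and Aspn (0.931) among its 5. Dll4 was closest to Ushbp1 (0.981), Gimap4 (0.976), Cyyr1 (0.969) and Egfl7 (0.966), the last a listed endothelial marker. Nrip2 was closest to the overlapping Gm44596 (0.991), which shares its locus, and then to Olfr78 (0.907), Grip2 (0.891), Gpr20 (0.887) and Sgca (0.877). Nrarp was likewise closest to its overlapping partner Gm38287 (0.998) and then to Ephx3 (0.876). The highest correlations were lower for Hey1 (Id3, 0.868), Notch1 (Etnk1, 0.867), Jag1 (Arhgef25, 0.847) and Notch2 (Adcy7, 0.772), and Notch4 had a mean under 20 CPM and was not compared.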

How the data were processed

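The deposited table holds raw read counts per gene and cell; per the submitters' processing notes, the authors used bcl2fastq, Bowtie, Bowtie2 and Subread's featureCounts on GRCm38/mm10, with versions, strand setting and annotation not given in the sources used here. Every cell column matched 1 sample each. Cells were clustered in scanpy 1.11.5 (2000 variable genes, 30 components, 15 neighbours, Leiden resolution 1) without 1960 genes, among them the Notch pathway genes, markers and Rgs5. A cluster was named when at least 3 markers of a class were raised 2 times, and how mixed clusters were treated was refined after the clusters were seen. Scrublet marked 2, 1 and 3 cells of the double-reporter mice, which were kept. Counts were summed per mouse and class (at least 5 cells) and tested with edgeR 4.0.16 (filterByExpr, TMM, quasi-likelihood test, R 4.3.3) with the mouse as block, Benjamini-Hochberg adjustment over all genes and a threshold of 0.05, in 1 fit of 3 classes with 4 residual degrees of freedom. DESeq2 1.42.0 was an alternative. The pairing comes from the design, since the same mice gave all classes; deviations of same-mouse sums correlated at 0.0360 to 0.331 (3 of 9 pairs over 0.1). On simulated counts for the comparison of smooth muscle-like with pericyte-like cells (16637 genes), 17 of 100 genes changed by 2 on the log2 scale and 99 of 100 changed by 4 were recovered, with 3 false calls. For the Rgs5 ranges (14877 genes) these were 4 and 74 of 100, with 1 false call. The simulation gave every gene the same spread and no mouse effect, and changed only genes above a minimum level. Its recovery and false calls therefore need not hold for the real comparisons, least of all for members with few counts. Coordinates are from GENCODE, promoters from RefSeq, and log2(CPM + 1) has a pseudocount of 1. All 10 members are named in each comparison, and of 49 other pathway genes up to 6 called ones with the largest change and a mean log2 CPM of at least 5. Members and lists were chosen with earlier results of these data known.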

Additional observations from a re-analysis of the deposited data

Results flagged for a closer look

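A few cells lay outside the comparisons because their mice gave too few cells. In 3 cells of cluster 4 from the ACTA2GFP mouse, 4 members exceeded the 7.05 CPM that a count of 0 allows in these cells, with no control cells beside them. Notch3 was 331 CPM, Heyl 707 CPM, Jag1 65.8 CPM and Nrip2 21.2 CPM. Notch1 was at the limit, with 3 counts (7.05 CPM), and Dll4, Hey1 and Notch4 had 0 counts. Of the endothelial cluster 1 cells in the C57BL/6 mouse 2 (3 cells, limit 17.9 CPM) and in the CSPG4dsRED mouse (2 cells, limit 24.1 CPM), no member was above the limit.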

How the results depend on the processing

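Of the values of single members under an alternative, 419 kept their direction and their side of the threshold, 27 became called, 27 lost their call and 24 changed direction. Between smooth muscle-like and pericyte-like cells, 2 members were called; DESeq2 called 6, leaving out a mouse 1 in each case, cells with at least 100000 counts and 2000 genes alone 1, and Leiden resolution 1.5 1. Between smooth muscle-like and fibroblast-like cells, 3 were called, 2 to 3 without 1 mouse, and 0 with cluster 6 only. Between pericyte-like and fibroblast-like cells, 4 were called; DESeq2 called 7, the deeper cells alone 2, and leaving out a mouse 2 to 3. Between the Rgs5 ranges, 2 were called; DESeq2 called 6, the deeper cells alone 0, the split at 300 CPM 0, and the fit without the replicate block 0. Without the replicate block the other comparisons called 2, 3 and 5 members, Dll4 among those against pericyte-like cells and of pericyte-like against fibroblast-like cells. The thinned share of Dll4 in the low-Aplnr endothelial cluster was 66.7% at Leiden resolution 1.5 against 79.7%.

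Directions turned as follows, in log2 changes. Between smooth muscle-like and pericyte-like cells, Hey1 was -0.71 without the replicate block, -1.30 to 1.89 with 1 mouse left out, -1.001 with at least 10 cells per sum and -0.50 in the deeper cells. With cluster 6 only, Hey1 was -3.64, Jag1 -0.76, Nrarp -6.41 and Nrip2 -0.47. Between smooth muscle-like and fibroblast-like cells, Notch4 was -0.43 without the replicate block, -0.032 to 2.08 with 1 mouse left out and -0.059 without fibroblast-like cluster 2, where Notch2 was 1.06. With cluster 6 only, Notch4 was -1.01, Notch1 -2.18, Notch3 -0.55, Hey1 -2.98 and Nrarp -1.43. Between pericyte-like and fibroblast-like cells, Hey1 was -0.33 to 1.64 with 1 mouse left out and -0.72 without cells over 500 CPM of 8 endothelial markers. Between the Rgs5 ranges, Notch2 was 0.60 and Heyl 0.53 with the split at 3000 CPM, Notch2 0.58 and Heyl 0.36 between clusters 3 and 6, and Notch4 -0.21 between subclusters. The cause was not tested.

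Of all genes, DESeq2 called 2291, 1752, 3019 and 1241 in the 4 comparisons against 380, 508, 782 and 45. In the first 3 comparisons, leaving out a mouse called 34 to 136, 98 to 163 and 194 to 360, the deeper cells alone 187, 263 and 404, and fits of 2 classes only 199, 913 and 419. The first called 618 without the replicate block. The second called 828 with cluster 3 only and 125 with cluster 6 only, and without fibroblast-like cluster 2 the comparisons against these cells called 280 and 433. The Rgs5 ranges called 160 without a filter, 3 in the deeper cells, 1 with the split at 300 CPM, 449 between subclusters and 92 between clusters 3 and 6. With DESeq2 the median log2 change of all genes in the first comparison was 0.25 against 0.35. Alternatives by cluster and by endothelial marker were chosen after seeing the data. Leaving out a mouse from the Rgs5 ranges could not be fitted, as 1 pair remained. The 9 and 13 pericyte-like cells of mice 3 and 2 limit what that class can show.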
